A study of Mus musculus with 4 samples.

Results

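The endothelial genes described here are 40 genes known for their expression in the cells that line blood and lymphatic vessels, taken by name as endothelial adhesion molecules, receptors, transcription factors, secreted proteins and connexins. The rule that lists them uses no measured value, but the list was drawn up with earlier results of these data known. All 40 were found among 43346 gene entries, and all 40 were among the 16146 genes that reached 1 CPM in 1 or more libraries, called measured genes here. CPM are counts scaled to a library of 1000000 counts. The RNA came from WT mouse embryos at stage e11.5, from 2 processes of the nose (lateral nasal and medial nasal), from the upper jaw process (maxillary) and from that of the lower jaw (mandibular). Each process had 1 library of bulk tissue labelled as mixed cell types, and neither the strain nor how many embryos were pooled is given in the sources used here. The medial nasal sample carries the abbreviation of the lateral nasal process in its tissue label, and was assigned by the words of its title. With 1 library per process there are no replicates, so no p-value can be given, and each interval given is a 95% interval for counting error alone.

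Endothelial cells enter the facial processes with the growing vessels and sprout toward vascular endothelial growth factor (VEGF) through its receptors, while angiopoietin receptors and junction proteins stabilise the new tubes. ETS family transcription factors act together with SoxF and other factors to keep the endothelial programme on, and Notch signalling and blood flow favour arterial identity. Veins and lymphatic vessels use partly different regulators, so single endothelial genes can mark the vessel bed as well as the cell type.

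The libraries held 13216161 to 16163874 counts, so that 3 counts corresponded to 0.185 to 0.223 CPM. Hand2, which marks the mandibular arch, was at 103 CPM in the mandibular library and at 1.32 CPM or less in the other 3, so that the mandibular label was met. The summed CPM of the 40 endothelial genes differed 1.09-fold between its highest and lowest library. Sums over 10 neural, 12 epithelial and 17 red blood cell genes differed 5.52-fold, 1.67-fold and 1.56-fold, and sums over 11 mesenchymal and 25 leukocyte genes 1.14-fold and 1.105-fold.

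The endothelial genes were expressed at similar levels in all 4 processes. Values below are given in the order lateral nasal, medial nasal, maxillary and mandibular. The summed level of the 40 genes was 899.8, 935, 906 and 979 CPM. Their share of the counts was 0.0904% (exact Clopper-Pearson interval 0.0890 to 0.0919), 0.0957% (0.0941 to 0.0974), 0.0894% (0.0879 to 0.0909) and 0.0964% (0.0948 to 0.0981). The medial nasal and mandibular shares thus lay slightly above the other pair by more than counting error. These were also the shallower libraries. By length-corrected level the sums were 291, 287, 281 and 306 TPM, so the medial nasal library was not among the highest pair on that scale. Protein-coding genes, the type of all 40, held 416250, 369160, 403030 and 384510 TPM, least in the medial nasal library. The TPM sums of the 40 genes therefore also depend on the share that other gene types hold. In bulk tissue, fewer endothelial cells and less RNA per endothelial cell cannot be told apart. Without the 3 genes with the highest mean CPM, Kdr, Ets1 and Ets2, the other 37 together stood at 687, 722, 696 and 731 CPM. The order of libraries by CPM stayed the same, and the difference between extremes fell from 1.09-fold to 1.06-fold. Leaving out the 13 genes that blood cells also express gave 484, 519, 526 and 544 CPM, a difference of 1.13-fold. The lateral nasal library was still lowest, and the medial nasal library then lay below the maxillary.

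A typical endothelial gene differed little between processes. The median over the 40 genes of the log2 difference between a library and the mean of the other 3, taken after adding 0.5 CPM, was -0.08, 0.04, 0.04 and 0.06. Over all 16146 measured genes the medians were 0.01, -0.01, -0.00 and -0.00. In the lateral nasal library 13 of 40 genes exceeded the mean of the other 3 libraries, against 22 medial nasal, 25 maxillary and 23 mandibular genes. Over all measured genes these shares were 52.0, 48.5, 49.8 and 49.7%. The lateral nasal process was the lowest library for 11 genes and the highest for 4. The medial nasal process was the highest library for 14 genes and the lowest for 13. The mandibular process was the highest for 14 genes and the lowest for 10, and the maxillary process the highest for 8 and the lowest for 6.

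Genes at least 1.5-fold from the mean of the other 3 libraries were few. In the lateral nasal library 0 of 40 endothelial genes lay that far above, where 3.96% of all measured genes did, and 1 lay that far below, where 5.59% did. In the medial nasal library 3 lay above, against 9.2% of all genes, and 0 below, against 3.19%. In the maxillary library 0 lay above, against 2.62%, and 0 below, against 7.24%. In the mandibular library 0 lay above, against 5.7%, and 2 below, against 6.63%. The 1 gene low in the lateral nasal library was Sox7, the 3 genes high in the medial nasal library were Vwf, Lyve1 and Sox7, and the 2 genes low in the mandibular library were Lyve1 and Gja4. Each of these counts is small beside 40 genes, so a single gene moves its share by 2.5 percentage points.

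**Figure D1:**
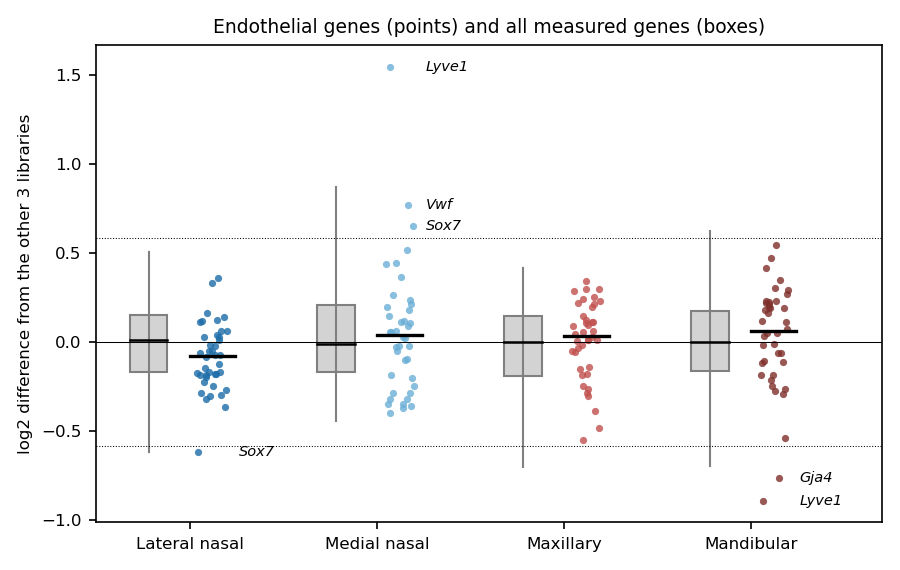
Log2 difference of each of the 40 endothelial genes from the mean of the other 3 libraries, by process (points, with their median as a thick bar), beside all 16146 measured genes (box from the lower to the upper quartile with the median, line from the 5th to the 95th percentile). Dotted lines mark 1.5-fold. The medians of the endothelial genes sit between -0.08 and 0.06, and the named genes are those beyond 1.5-fold.

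Between pairs of processes, 0 to 5 of the 40 endothelial genes were separated at least 1.5-fold (0 to 12.5%), and the share of all measured genes follows in brackets. For pairs of the medial nasal with the lateral nasal, maxillary and mandibular libraries, the endothelial shares were 10, 12.5 and 12.5%. Those lie near the shares of all measured genes, which include noncoding genes. Lateral and medial nasal libraries were that far apart for 4 genes (13.5% of all measured genes), with Vwf, Lyve1, Erg and Sox7 higher in the medial nasal library. Lateral nasal and maxillary libraries were apart for 0 of 40 genes (11% of all genes). Lateral nasal and mandibular libraries were apart for 3 genes (17% of all genes), with Gja4 higher in the lateral nasal and Flt4 and Sox7 higher in the mandibular library. Medial nasal and maxillary libraries were apart for 5 genes (17.1%), with Vwf, Fli1, Lyve1, Erg and Sox7 all higher in the medial nasal library. Medial nasal and mandibular libraries were also apart for 5 genes (15.6%), of which Vwf, Lyve1, Gja4 and Gja5 were higher in the medial nasal and Apln in the mandibular library. Maxillary and mandibular libraries were apart for 2 genes (13.2%), Gja4 and Gja5, both higher in the maxillary library.

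The spread of single genes was close to that of other genes in its middle and narrower at its end. After adding 0.5 CPM, the median fold between a gene's highest and lowest library was 1.32 for the endothelial genes and 1.32 for all measured genes. It was 1.29 for measured protein-coding genes, the type of all 40. On that scale at least 1.5-fold separated the extremes of 9 endothelial genes (22.5%), against 32.0% of all genes and 27.3% of protein-coding genes. At least 2-fold separated those of Lyve1 alone among the 40 (2.5%), against 14.7% of all genes and 13.3% of protein-coding genes. Sox7 and Gja4 were also more than 2-fold apart in CPM as such, where nothing is added. For 31 of the 40 genes (77.5%) the counting interval of the CPM fold lay above 1, as it did for 76.6% of all measured genes. These intervals compare libraries that were picked as extremes after the values were seen. In every library 34 of the 40 genes (85%) stayed within 1.5-fold of the endothelial median, and 77.2% of all measured genes stayed as close to the median of all. The 6 endothelial genes that did not were Fli1, Sox7, Vwf, Gja4, Gja5 and Lyve1. The endothelial medians themselves lay between -0.08 and 0.06. Staying close to them therefore shows small differences and not that the genes moved together, and the genes did not share an order of libraries.

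**Figure D2:**
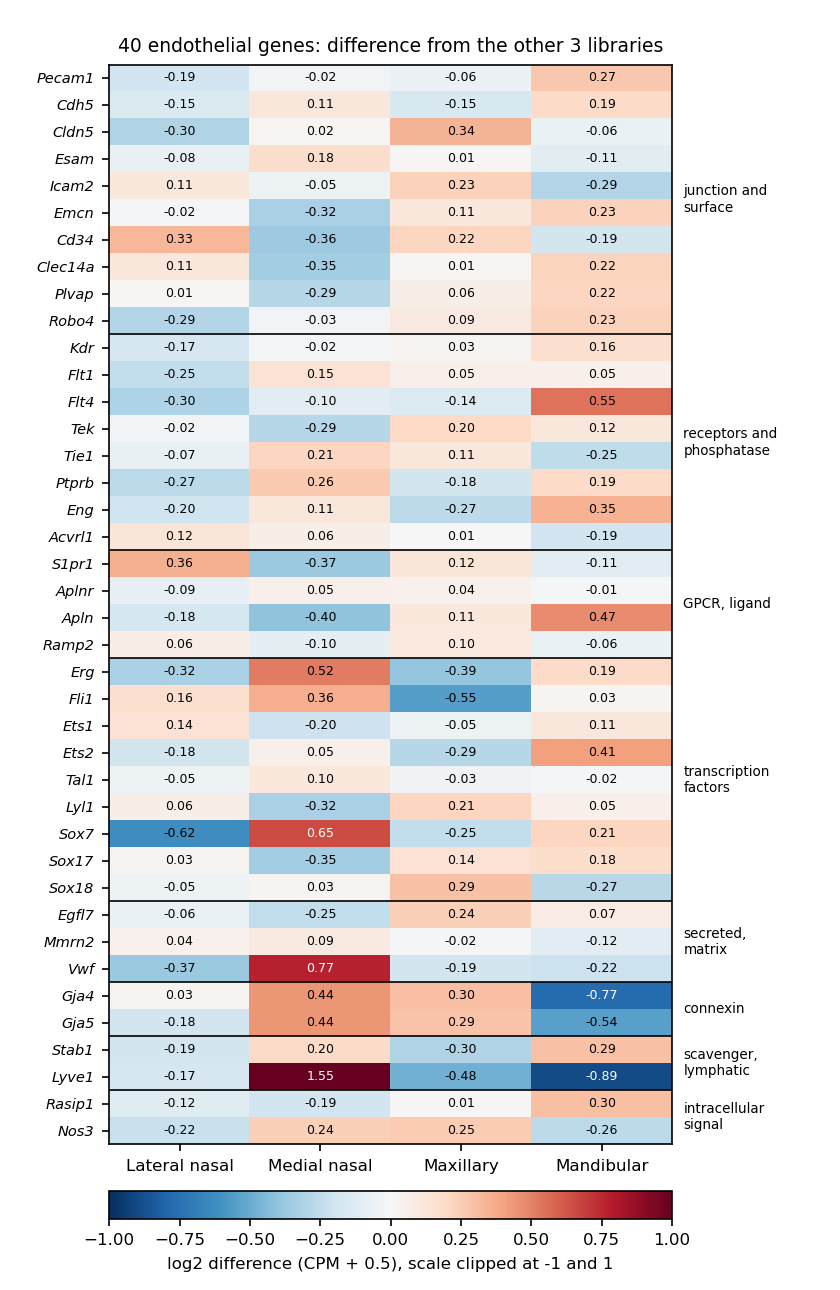
Log2 difference of each endothelial gene (rows, grouped by role) from the mean of the other 3 libraries, for the 4 processes (columns). Red marks higher and blue lower levels, and the colour scale is clipped at -1 and 1. Lyve1, Vwf and Sox7 are darkest red in the medial nasal process, and Lyve1, Gja4 and Gja5 are blue in the mandibular process.

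Promoter sequences were read for those of the 40 genes that had a promoter window, since ETS factors bind short GGAA motifs at endothelial genes. RefSeq gave 26 promoter windows, 250 bases before to 50 after the transcription start on GRCm38.p6, for 21 of the 40 genes. The ETS motif searched was AGGAAG or CGGAAG on either strand, and 14 of the 26 windows (53.8%) held it, against 46.5% of all 32851 windows. The composite FOX-ETS motif AACAGGAA, which overlaps the ETS motif, was in 2 windows (7.69%), those of Egfl7 and Emcn, against 2.65% of all windows. The SOX motif AACAAT was in 3 windows (11.54% against 10.7%), the GATA motif AGATAA or TGATAA in 5 (19.2% against 18.6%), and the E-box CAGATG in 6 (23.1% against 17.2%). A match is not evidence of binding. The 250 bases upstream of 4 starts are shown, those of the 2 genes with the composite motif and those of the 2 connexins that were lowest together in the mandibular process, with matches to the ETS and FOX-ETS motifs on either strand in capitals.
Emcn, chr3:137340828-137341077, plus strand: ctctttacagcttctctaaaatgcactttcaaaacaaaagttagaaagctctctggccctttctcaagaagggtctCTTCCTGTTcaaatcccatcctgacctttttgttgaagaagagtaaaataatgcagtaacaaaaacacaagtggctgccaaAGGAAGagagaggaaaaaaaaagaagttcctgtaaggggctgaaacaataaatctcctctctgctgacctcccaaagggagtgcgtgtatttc
Egfl7, chr2:26580833-26581082, plus strand, 1 of its 3 windows: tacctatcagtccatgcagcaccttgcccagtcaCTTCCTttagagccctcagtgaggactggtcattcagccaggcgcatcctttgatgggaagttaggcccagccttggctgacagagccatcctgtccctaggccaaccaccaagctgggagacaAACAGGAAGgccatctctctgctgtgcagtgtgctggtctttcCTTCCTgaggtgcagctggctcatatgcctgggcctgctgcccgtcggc
Gja4, chr4:127314040-127314289, minus strand: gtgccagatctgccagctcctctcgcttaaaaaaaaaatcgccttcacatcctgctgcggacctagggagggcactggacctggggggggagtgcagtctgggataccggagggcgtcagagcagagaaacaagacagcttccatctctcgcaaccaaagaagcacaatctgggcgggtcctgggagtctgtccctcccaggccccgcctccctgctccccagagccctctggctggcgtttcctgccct
Gja5, chr3:97032152-97032401, plus strand: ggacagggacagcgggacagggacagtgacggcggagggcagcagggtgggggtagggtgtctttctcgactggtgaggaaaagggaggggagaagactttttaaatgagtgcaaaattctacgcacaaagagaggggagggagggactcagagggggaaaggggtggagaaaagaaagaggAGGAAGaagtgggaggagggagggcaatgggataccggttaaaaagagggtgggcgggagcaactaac
The Gja4 stretch held none of these ETS letters and the Gja5 stretch held them once.

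The vascular endothelial growth factor receptors and angiopoietin receptors were present in every process, and Flt4 varied most among them. Of the 8 genes for receptors of growth factors and the phosphatase that restrains them, 7 lay below the mean of the other 3 libraries in the lateral nasal process. Their median log2 differences were -0.18, 0.09, 0.02 and 0.14. Kdr (VEGF receptor 2, the main receptor for sprouting) was at 73.55, 79.4, 81.5 and 87.5 CPM. Its mandibular level was 1.19-fold its lateral nasal level (interval 1.096 to 1.29), and its neighbours in that order did not differ beyond counting error. Flt4 (VEGF receptor 3, the receptor for VEGF-C, on chromosome 11 from 49609263 to 49652739 of GRCm38) was at 17.9, 19.9, 19.5 and 28.1 CPM. The mandibular level stood apart, at 1.41-fold that of the next library (1.204 to 1.66), and the other 3 libraries lay close together. Flt1 (VEGF receptor 1, which also traps the ligand) ranged from 20.4 CPM in the lateral nasal to 25.2 CPM in the medial nasal library. Tek, the angiopoietin receptor, ranged from 14.6 CPM in the medial nasal to 19.0 CPM in the maxillary library. Tie1, its orphan partner, ranged from 24.1 CPM in the mandibular to 30.8 CPM in the medial nasal library, so the highest and lowest libraries of the receptor and its partner were not the same. Ptprb, the endothelial phosphatase that acts on Tek and on cadherin junctions, ranged from 13.4 to 17.8 CPM. Eng and Acvrl1, the co-receptor and receptor for BMP9, ranged from 15.0 to 20.9 CPM and from 11.51 to 13.6 CPM. For Acvrl1 the fold of 1.18 had an interval of 0.958 to 1.46, so no difference was detectable at this depth.

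Junction and surface proteins hold endothelial cells together and form their outer face. Their median log2 differences over 10 genes were -0.05, -0.04, 0.07 and 0.20. Cdh5 (VE-cadherin, the adherens junction protein of endothelium) was at 58.0, 66.6, 57.8 and 69.2 CPM. Pecam1 (CD31, a junction adhesion molecule) was at 44.4, 48.4, 47.6 and 56.5 CPM. Both were highest in the mandibular library, by 1.196-fold (1.09 to 1.31) and 1.27-fold (1.15 to 1.41) over their lowest library. Emcn (endomucin, a sialoglycoprotein of venous and capillary endothelium) was at 18.5, 15.7, 19.8 and 21.2 CPM, with the medial nasal library lowest. Cd34 (a surface sialomucin also found on blood progenitors) went another way. It was at 75.7, 52.7, 71.5 and 57.8 CPM, high in the lateral nasal and maxillary libraries and 1.44-fold apart at its extremes (1.31 to 1.58).

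Cldn5 (the main claudin of endothelial tight junctions) ranged from 8.68 CPM in the lateral nasal to 12.3 CPM in the maxillary library. Esam and Icam2, 2 further adhesion molecules, ranged from 10.9 to 12.8 CPM and from 4.90 to 6.59 CPM, and neither fold had an interval above 1. Robo4, a receptor that stabilises vessels, ranged from 10.5 CPM in the lateral nasal to 14.0 CPM in the mandibular library. Clec14a, a C-type lectin of endothelium, and Plvap, which forms the diaphragms of fenestrae and caveolae, were lowest in the medial nasal library, at 8.65 and 15.6 CPM. Both were highest in the mandibular library, at 11.8 and 20.4 CPM.

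The apelin receptor was among the steadiest genes while its ligand was not. Aplnr (a G protein-coupled receptor of venous and sprouting endothelium) was at 35.4, 38.1, 37.9 and 36.8 CPM. Its fold of 1.08 had an interval of 0.953 to 1.21. Apln (apelin, made by tip cells of sprouts) was at 8.12, 7.17, 9.48 and 11.6 CPM, highest in the mandibular and lowest in the medial nasal library. These extremes were 1.62-fold apart (1.25 to 2.10). S1pr1 (the sphingosine 1-phosphate receptor that keeps junctions closed) ranged from 12.3 CPM in the medial nasal to 18.3 CPM in the lateral nasal library, 1.48-fold (1.22 to 1.80). Like Cd34, it was highest in the lateral nasal and the maxillary library. Ramp2 (the co-receptor that makes Calcrl an adrenomedullin receptor) was at 11.45, 10.5, 11.7 and 10.7 CPM, with no difference detectable at this depth.

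Among transcription factors of the ETS family, Fli1 and Erg differed most between processes. Fli1 was at 69.2, 76.9, 47.6 and 64.7 CPM. The maxillary library stood apart below the rest, 1.36-fold under the next lowest (interval of that fold 1.23 to 1.501) and 1.62-fold under the highest (1.47 to 1.78). Erg (an ETS factor that maintains endothelial identity) was at 10.03, 15.8, 9.68 and 13.3 CPM. It was high in the medial nasal and mandibular libraries and low in the other pair, 1.63-fold apart at its extremes (1.32 to 2.03). Ets1 was at 76.9, 64.2, 69.6 and 75.8 CPM, a fold of 1.199. Ets2 was at 61.9, 70.1, 58.6 and 84.6 CPM, with the mandibular library 1.21-fold above the next (1.11 to 1.32). The 4 ETS genes therefore did not share an order of libraries. Fli1, Ets1 and Ets2 are also expressed outside endothelium, in blood cells and mesenchyme, and the part of those cells in these values was not tested.

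The SoxF genes, partners of ETS factors in arterial and early lymphatic endothelium, also went separate ways. Sox7 (chromosome 14, 63943673 to 63950732) was at 3.39, 7.02, 4.22 and 5.49 CPM. The medial nasal library was highest and the lateral nasal library lowest, 2.07-fold apart (1.47 to 2.95), on 55 to 95 counts. Sox17 and Sox18 ranged from 2.59 to 3.56 CPM and from 6.68 to 9.15 CPM. Sox17 was lowest in the medial nasal library, where Sox7 was highest, but the interval of its fold, 0.873 to 2.19, included 1. Tal1 and Lyl1, related bHLH factors of blood and endothelial progenitors, ranged from 10.03 to 10.9 CPM and from 1.63 to 2.31 CPM. Tal1 had a fold of 1.09 (0.867 to 1.37).

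Among secreted and matrix proteins, Vwf was set apart in the medial nasal process. Egfl7 (a secreted protein of growing vessels) had the highest length-corrected level of the 40 genes, a mean of 34.8 TPM. It was at 29.1, 26.4, 34.2 and 31.3 CPM, with the maxillary library 1.30-fold above the medial nasal (1.13 to 1.49). Mmrn2 (an endothelial matrix glycoprotein that binds Clec14a) ranged from 17.6 to 19.7 CPM. Vwf (von Willebrand factor, stored in endothelial granules and in platelets, on chromosome 6 from 125546774 to 125686679) was at 9.42, 17.4, 10.4 and 10.2 CPM. The medial nasal level was 1.68-fold that of the next library (1.36 to 2.06), and the other 3 libraries did not differ beyond counting error. Of 12 genes of platelets and megakaryocytes, 9 were measured, and the list summed to 43.9, 36.4, 43.7 and 35.8 CPM. Gp9 was at 0.92, 0.30, 1.25 and 0.59 CPM and Gp5 at 0.98, 1.18, 1.84 and 0.97 CPM. The part of platelets in the Vwf level was not tested. On the deposited TPM scale Vwf was at 2.25, 3.31, 1.90 and 1.51 TPM, with the medial nasal library again highest.

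The arterial connexins Gja4 and Gja5 shared their order of libraries. Gja4 (connexin 37, chromosome 4, 127311421 to 127314039 on the minus strand of GRCm38) was at 4.86, 6.13, 5.66 and 3.04 CPM. Gja5 (connexin 40, chromosome 3, 96904693 to 97077416 on the plus strand) was at 8.25, 11.6, 10.7 and 6.76 CPM. Both were highest in the medial nasal, next in the maxillary, then in the lateral nasal and lowest in the mandibular library. Tie1 and Esam had the same order, so it was not particular to the connexins. The extremes were 2.02-fold apart for Gja4 (1.37 to 3.01), on 41 to 86 counts, and 1.72-fold apart for Gja5 (1.32 to 2.25), on 91 to 162 counts. The step from the lateral nasal to the mandibular library lay beyond counting error for Gja4, at 1.598-fold (1.08 to 2.39), and not for Gja5, at 1.22-fold (0.929 to 1.61). Against the endothelial median of each library, both genes were more than 1.5-fold low in the mandibular process.

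Stab1 and Lyve1 are scavenger and hyaluronan receptors of sinusoidal, venous and lymphatic endothelium and of macrophages. Stab1 was at 31.4, 38.4, 29.5 and 40.4 CPM, a fold of 1.37 (1.21 to 1.554) with the medial nasal and mandibular libraries high. On the deposited TPM scale, which uses each gene's estimated transcript length, it was at 12.2, 9.66, 5.34 and 9.67 TPM, a fold of 2.28 in another order, so its order depends on the scale. Lyve1 (chromosome 7, 110850607 to 110863239) was at 0.55, 2.07, 0.40 and 0.22 CPM, on 9, 28, 6 and 3 counts. The medial nasal level was 3.74-fold that of the next library (1.71 to 9.0002), and the low libraries could not be ordered at this depth. Genes of macrophages and other leukocytes summed to 76.1, 79.3, 76.4 and 71.8 CPM over 25 listed genes. The 17 measured among them had a median log2 difference of 0.23 in the medial nasal library. Of the 25 leukocyte genes listed, Spi1, the regulator of myeloid cells, was at 0.49, 1.26, 0.59 and 0.97 CPM, and Aif1, a macrophage gene, at 0.18, 1.18, 0.40 and 0.45 CPM, both highest where Lyve1 was. Lyz2 was at 1.72, 1.48, 1.12 and 0.45 CPM, Coro1a at 13.6, 9.90, 18.2 and 12.5 CPM, and Elane, a neutrophil gene, was at 0 counts in all 4 libraries. Their part in the Lyve1 value was not tested.

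The intracellular signal genes differed by about as much as the median endothelial gene. Rasip1 (a Ras-interacting protein needed for vessel lumens) ranged from 12.1 CPM in the medial nasal to 15.8 CPM in the mandibular library. Its fold was 1.30 (1.06 to 1.61). Nos3 (endothelial nitric oxide synthase) ranged from 6.38 CPM in the mandibular to 8.50 CPM in the maxillary library, a fold of 1.33 (1.01 to 1.77).

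**Figure D3:**
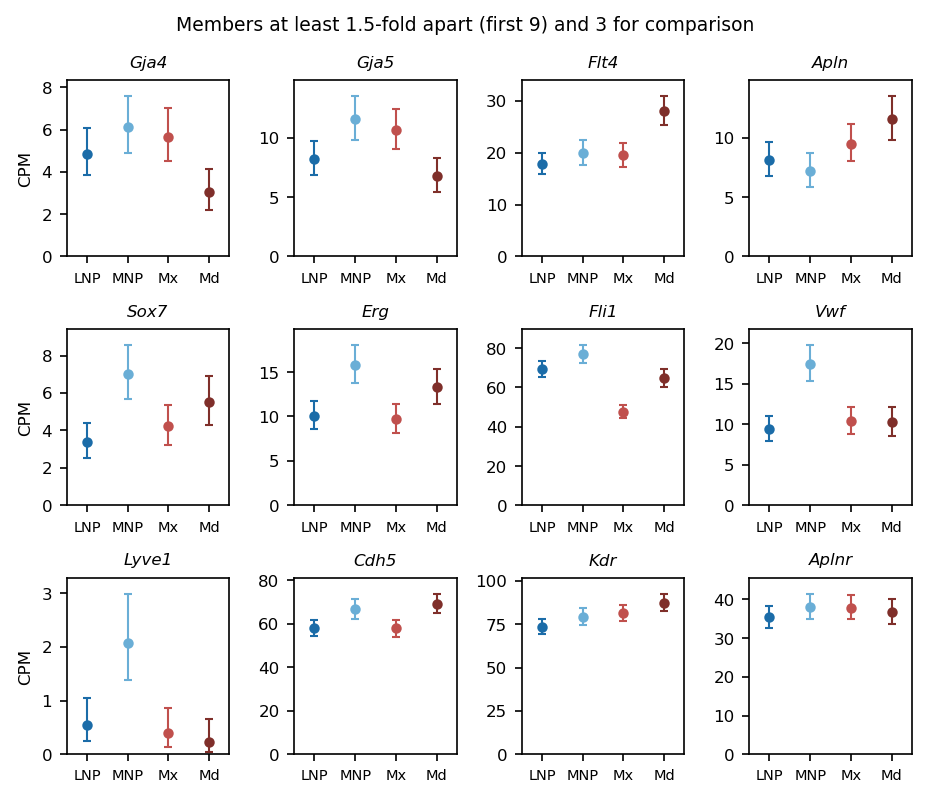
CPM of the 9 endothelial genes whose highest and lowest libraries were at least 1.5-fold apart, and of Cdh5, Kdr and Aplnr, in the lateral nasal (LNP), medial nasal (MNP), maxillary (Mx) and mandibular (Md) libraries. Points are single libraries, bars are exact Poisson 95% intervals of the count, and each vertical axis starts at 0. Gja4 and Gja5 are lowest in the mandibular library, Vwf and Lyve1 stand apart in the medial nasal library, and Aplnr is at 35.4 to 38.1 CPM throughout.

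By length-corrected level the genes covered a wide range. After Egfl7, mean TPM over the 4 libraries was 23.3 for Cd34, 22.3 for Fli1, 17.1 for Ets2, 14.6 for Ets1, 13.9 for Cdh5, 13.7 for Pecam1, 13.2 for Ramp2, 12.1 for Kdr, 10.3 for Emcn, 9.88 for Aplnr and 9.21 for Stab1. The lowest were Lyve1 at 0.28, Lyl1 at 1.04 and Ptprb at 1.12 TPM. None of the 40 genes was at 0 counts in any library.

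Red blood cell genes went with the Cd34 and S1pr1 order and not with the endothelial sum. The 17 red blood cell genes measured summed to 5130.1, 3295, 4820.2 and 3655 CPM, and 16, 2, 15 and 2 of them exceeded the mean of the other 3 libraries. The lateral nasal library was thus highest for red blood cell genes. Its endothelial sum was only narrowly the lowest by CPM, at 899.8 against 906 CPM in the maxillary library. By length-corrected level the maxillary endothelial sum was lowest, at 281 TPM, and the lateral nasal sum was 291 TPM. The lateral nasal and maxillary libraries were also the 2 highest for 24.7% of all measured genes, the most frequent pair. The part of blood cells in the levels of Cd34 and S1pr1 was not tested.

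The ligands and partners of these receptors showed single genes with larger differences than most of the endothelial genes. Of 46 listed vessel signals and partners, 42 were measured, and 6, 4, 2 and 4 of them lay at least 1.5-fold above the mean of the other 3 libraries, with 3, 3, 2 and 4 that far below. All measured genes gave 3.96, 9.2, 2.62 and 5.7% above and 5.59, 3.19, 7.24 and 6.63% below, so several of these counts lie near or under that background. Vegfa, the main ligand of Kdr, was at 49.5, 51.7, 58.4 and 51.7 CPM, with the maxillary library 1.18-fold above the lateral nasal (1.07 to 1.30). Vegfc, the ligand of Flt4, was at 7.82, 6.95, 7.90 and 7.795 CPM and did not share the mandibular high level of its receptor. Hey2, a Notch target, was at 40.005, 10.6, 74.0 and 25.8 CPM, and Hey1, another, at 45.5, 44.6, 29.3 and 18.6 CPM. Sema3e, a repellent cue for vessels, was at 9.35, 10.5, 9.15 and 3.27 CPM and was thus low in the mandibular library alone. Slit3, a secreted guidance cue, was at 18.5, 28.9, 36.8 and 66.4 CPM, and Cxcr4, the receptor of Cxcl12, at 21.6, 19.4, 9.22 and 7.20 CPM. Apela, a further ligand of Aplnr, was at 0.55, 0.30, 0.92 and 1.71 CPM, on 9, 4, 14 and 23 counts. Its mandibular level was 1.85-fold the maxillary level (0.913 to 3.89), so these could not be ordered at this depth. By TPM the maxillary library was highest, at 2.21 against 1.79 in the mandibular. All of these genes are also expressed outside vessels, and the part of other cells in these values was not tested.

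Arterial, venous and lymphatic marker lists did not rank the processes alike. The median log2 difference of 13 measured arterial genes, Gja4, Gja5 and Sox17 among them, was 0.13, 0.17, 0.10 and -0.28, and 3 of the 13 lay above the mean of the other 3 in the mandibular library. Efnb2, the arterial ligand of Ephb4, was at 188, 119.7, 83.4 and 101.6 CPM. Dll4, the arterial Notch ligand, was at 6.65, 6.65, 5.86 and 5.12 CPM, a fold of 1.30 (0.939 to 1.80). Nrp1, an arterial co-receptor also found in mesenchyme and nerves, was 1 of the 3 higher in the mandibular library, at 55.8, 65.2, 79.2 and 106.7 CPM. Sox17 was another, highest there at 3.56 CPM, although its extremes did not differ beyond counting error. The median of 5 venous genes, Aplnr and Flt4 among them, was -0.30, -0.10, 0.04 and 0.08. Nr2f2, the venous regulator and also a mesenchymal gene, was at 46.8, 77.9, 46.5 and 141 CPM.

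The 6 lymphatic markers split between processes. Prox1, the lymphatic regulator, was at 3.51, 4.14, 3.23 and 10.1 CPM, highest in the mandibular library as Flt4 was. Reln was at 20.99, 62.3, 15.5 and 18.0 CPM, highest in the medial nasal library as Lyve1 was. Ccl21a was at 0.49, 0.44, 0.59 and 1.56 CPM, and Pdpn was lowest in the mandibular library at 7.72 CPM. Prox1, Reln and Pdpn are also neural or epithelial genes, and the list gave medians of -0.30, 0.19, -0.34 and -0.02.

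**Figure D4:**
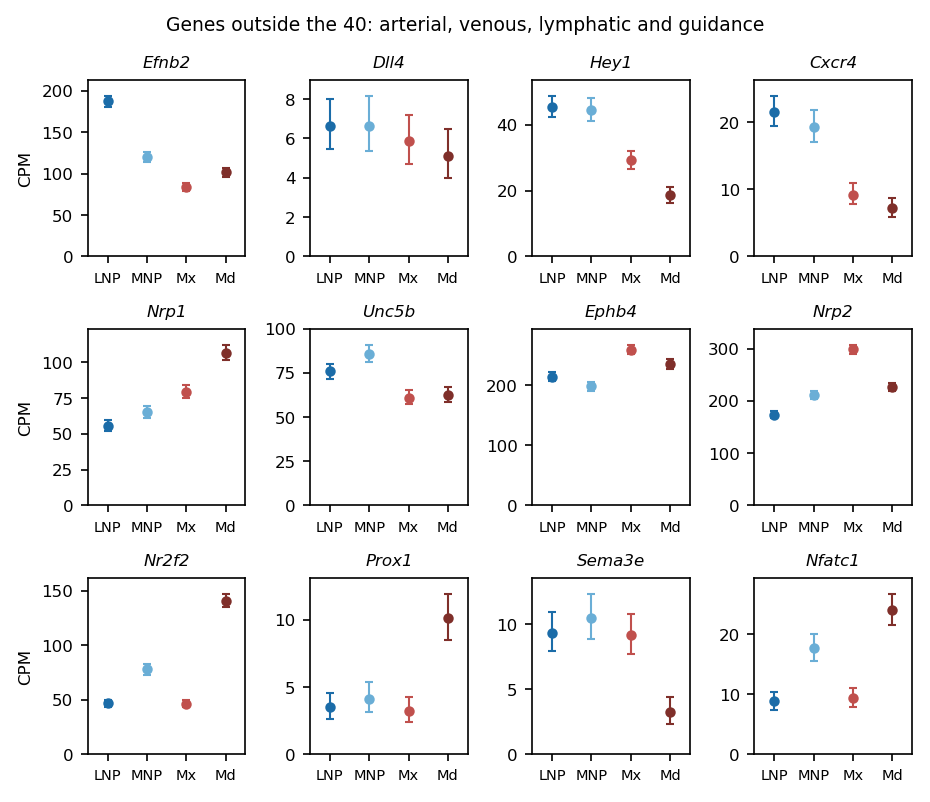
CPM of 12 genes outside the 40 that mark arteries (Efnb2, Dll4, Hey1, Cxcr4, Nrp1, Unc5b), veins (Ephb4, Nrp2, Nr2f2) or lymphatic vessels (Prox1), or guide or pattern vessels (Sema3e, Nfatc1), chosen from the lists after their values were seen. Points are single libraries, bars are exact Poisson 95% intervals of the count, and each vertical axis starts at 0. Prox1 and Nr2f2 are highest and Sema3e lowest in the mandibular library.

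Other regulators and markers of endothelium, 48 of 50 measured, had medians of -0.13, 0.06, 0.04 and 0.05. At least 1.5-fold above the mean of the other 3 libraries lay 2, 4, 3 and 5 of them, and 5, 1, 8 and 2 lay that far below. Over all measured genes the shares were 3.96, 9.2, 2.62 and 5.7% above and 5.59, 3.19, 7.24 and 6.63% below. Several of the counts thus lie near or under that background, although most exceed those among the 40 genes. The sums over this list were 1.24-fold apart. In the lateral nasal library 14 of these 48 lay above the mean of the other 3. Cd93, a surface lectin of endothelium, was at 57.8, 61.0, 58.7 and 58.6 CPM. The genes with large differences are known outside vessels too: Gata2 was at 43.2, 59.9, 5.66 and 1.41 CPM, and Foxc1 at 42.5, 60.5, 10.2 and 15.0 CPM. Hoxd1 reached 1.19 CPM in the maxillary library and 0.07 to 0.74 CPM in the others. Foxc2 was at 6.22, 12.3, 2.83 and 10.4 CPM, and Nfatc1, a valve and lymphatic factor, at 8.86, 17.7, 9.35 and 24.1 CPM. Genes of pericytes and smooth muscle, the cells that wrap vessels, had medians of -0.35, 0.25, -0.25 and 0.60 over 11 measured genes. Among them Rgs5 was at 3.39, 7.84, 2.63 and 7.65 CPM and Kcnj8 at 0.12, 0.44, 0.07 and 3.71 CPM. Cspg4 was at 11.02, 13.5, 8.23 and 15.6 CPM, and Anpep at 7.45, 9.90, 6.06 and 12.3 CPM. Acta2 and Des, which skeletal muscle also expresses, were at 49.7 and 20.0 CPM in the mandibular library, where 7 muscle genes had a median of 3.23. The part of muscle cells in the mandibular median was not tested. Genes of the brain vessel barrier, 12 of 15 measured, had medians of 0.17, 0.01, -0.05 and -0.10. Lef1, a Wnt pathway factor also found in mesenchyme, was at 109.7, 65.1, 236.6 and 107 CPM, and Ocln, a tight junction gene also found in epithelium, at 11.6, 9.53, 3.23 and 2.52 CPM. Foxq1 was at 0.06, 0.96, 0.33 and 1.11 CPM.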

How the data were processed

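The deposited tables, 1 per process, hold expected counts, which the authors estimated with RSEM 1.4.1 from single-end 50 bp reads aligned to mm10 with STAR, and TPM, which the authors corrected for transcript length. RSEM divides reads that match several genes. Expected counts were rounded; 26248 numbered entries and 96 spike-ins were left out, and 42462 of 43346 gene IDs gained symbols and coordinates from GENCODE M21 on GRCm38. Exons of 3 members overlap another gene on the same strand (Ramp2, Egfl7, Rasip1) and those of 10 a gene on the opposite strand.

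CPM used trimmed mean of M values factors from edgeR 4.0.16 (0.985 to 1.02, genes with at least 10 counts in 1 library). Genes with at least 1 CPM in 1 library were compared as log2(CPM + 0.5) at a fold of 1.5. Fold intervals are exact conditional binomial (Clopper-Pearson) intervals. The procedure was tested on simulated data. With 1 library per process, differences between embryos could not be estimated.

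The members and gene lists were chosen with earlier results of these data known. All values are given for the 12 members of highest mean TPM and for those 1.5-fold apart or 1.5-fold from the members' median, others as ranges. Of each list of vessel or blood cell genes, up to 6 genes 1.5-fold from the mean of the other 3 are named, by size; genes of other tissues are not named, apart from Hand2. Vegfa, Vegfc, Dll4, Unc5b, Nrp2, Ephb4, Nfatc1, Cd93 and Elane were named after their values were seen. Alternatives used DESeq2 1.42.0 size factors, total counts, protein-coding genes, TPM, other pseudocounts, minima and folds.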

Additional observations from a re-analysis of the deposited data

How the results depend on the processing

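The median difference of the endothelial genes kept its sign in each process under the alternatives run, and lay between -0.11 and -0.05 in the lateral nasal, 0.03 and 0.08 in the medial nasal, 0.01 and 0.06 in the maxillary and 0.04 and 0.14 in the mandibular process. A median was taken as moved at 0.22 to 0.23 or more (the typical counting half-width of 1 gene, a wide bar beside these medians), a count beyond 1.5 times, and a fold outside its interval. By these bars 218 of 248 values stayed, 30 moved and 0 reversed. DESeq2 size factors, total counts, protein-coding genes alone and no minimum level moved none past them, although with protein-coding genes 2 in place of 3 genes separated lateral nasal and mandibular. With the deposited TPM, where Lyve1 stayed under the minimum level, the lateral nasal process had 0 genes 1.5-fold below the other 3, the medial nasal 1 above, the maxillary 1 below (Stab1) and the mandibular 1 below. Between processes TPM gave 2 genes 1.5-fold apart for lateral and medial nasal, 1 for lateral nasal and maxillary, 0 for lateral nasal and mandibular, 3 for medial nasal and mandibular, and 4 for maxillary and mandibular. The cause was not tested. A pseudocount of 0.1 put 1 gene (Lyve1) below in the maxillary process. A pseudocount of 2 left 0 below in the lateral nasal and 0 below in the mandibular process, 1 apart between lateral nasal and mandibular and 1 apart between maxillary and mandibular. A minimum of 5 CPM removed Lyve1 and left 1 below in the mandibular process. Without the 13 genes that blood cells also express, 1 gene was above in the medial nasal and 1 below in the mandibular process, and 1, 1 and 3 genes separated the medial nasal from the lateral nasal, maxillary and mandibular libraries. A fold of 2 left 0 below in the lateral nasal, 1 above in the medial nasal (Lyve1) and 0 below in the mandibular process. Between pairs it left 1 for lateral and medial nasal, 0 for lateral nasal and mandibular, 1 for medial nasal and maxillary, 1 for medial nasal and mandibular, and 0 for maxillary and mandibular. Single folds that moved were that of Vwf between medial and lateral nasal, 1.47 with TPM (where mandibular was lowest and the full range was 2.19-fold), and that of Lyve1, 1.83 with a pseudocount of 2. No paired analysis was possible because each process had 1 library. Counts of 3 to 28 for Lyve1 limit its order, and no value here measures the spread between embryos.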

Other observations

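Genes were not equally high in the deeper libraries (lateral nasal, maxillary) and the shallower ones (mandibular, medial nasal) across lengths. Across the 40 endothelial genes, which share the 4 libraries and are not independent, exon length had a Spearman correlation of -0.33 with the log2 difference of deeper minus shallower libraries. Across 13785 protein-coding genes it was -0.35, so longer genes in general stood lower in the lateral nasal and maxillary libraries. The 20 endothelial genes below their median length of 4167 bases had a median of 0.02 on that scale, and the 20 above it -0.09. Among endothelial genes, the pair of libraries with the highest levels was most often the medial nasal and maxillary (10 of 40, 25%) or the medial nasal and mandibular (10 of 40), where 9.45% and 22.7% of all measured genes had those pairs. The mandibular and maxillary pair followed closely, with 9 endothelial genes (22.5%) and 15.5% of all genes. The lateral nasal and maxillary pair came first for 5 endothelial genes (12.5%) and for 24.7% of all genes.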
